A study of Rattus norvegicus with 6 samples.

Results

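The let-7 passenger strands are the 3p arms of the let-7 hairpins, the less abundant strand of each duplex. They were taken as 10 rows of the deposited miRNA table by name, namely rno-let-7a-1-3p, rno-let-7a-2-3p, rno-let-7b-3p, rno-let-7c-1-3p, rno-let-7c-2-3p, rno-let-7d-3p, rno-let-7e-3p, rno-let-7f-1-3p, rno-let-7f-2-3p and rno-let-7i-3p, out of 775 listed miRNAs (the species prefix is dropped from here on). The rows of let-7a-1-3p and let-7c-2-3p held identical counts in every library and were read as 1 signal, which left 9 distinct signals. An eleventh row of the table, let-7g-3p, has a name of the same form but was outside the chosen list and is described separately. Small RNA was sequenced from brains of male Sprague-Dawley rats, bought at 7 weeks of age, in which both common carotid arteries had been tied off (2-vessel occlusion, 2VO, a model of vascular dementia). All 6 libraries analysed here carried this ligation. In the 2VO group (3 libraries) the rats were given the vehicle, 0.5% carboxymethylcellulose sodium at 5 mL/kg, for 4 weeks by gastric tube. In the tilianin group (3 libraries) the vehicle carried 40 mg/kg tilianin, a flavonoid glycoside, given each day. The sham group was not analysed here. The sources do not say whether a library is 1 rat, so p-values measure only the spread between these libraries, and the tissue is named as brain in the labels and as cortical in one place of the paper. In such bulk tissue, fewer cells of a type and less RNA per cell cannot be told apart.

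A let-7 hairpin is cut by Drosha and then by Dicer into a short duplex. One strand, for let-7 the 5p guide, is usually kept by Argonaute and directs the silencing of mRNAs through its seed, and the other, the 3p passenger strand, is usually released and degraded. let-7 guides are among the abundant miRNAs of mature neurons and are known for promoting differentiation, while LIN28 blocks their maturation in progenitors. A passenger strand that stays in Argonaute can act through its own seed, which is not that of the guide.

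Mature sequences were read from RefSeq (GRCr8), which held 9 of the 10 passenger strands and not let-7c-1-3p. They are shown because the seeds (bases 2 to 8, in capitals) divide the passenger strands into groups, whereas the guides of the same hairpins have a single seed. The passenger strands with sequence were, 5′ to 3′:
let-7a-1-3p: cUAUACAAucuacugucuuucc
let-7c-2-3p: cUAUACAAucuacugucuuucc
let-7b-3p: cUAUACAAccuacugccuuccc
let-7f-1-3p: cUAUACAAucuauugccuucc
let-7f-2-3p: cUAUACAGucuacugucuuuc
let-7d-3p: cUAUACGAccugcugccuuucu
let-7e-3p: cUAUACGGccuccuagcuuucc
let-7a-2-3p: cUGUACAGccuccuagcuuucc
let-7i-3p: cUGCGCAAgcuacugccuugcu
For comparison, 3 of the 7 guides were:
let-7a-5p: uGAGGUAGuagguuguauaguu
let-7d-5p: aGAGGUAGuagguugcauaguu
let-7i-5p: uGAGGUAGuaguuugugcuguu

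The 9 passenger sequences fell into 8 distinct ones with 6 seeds, and the 7 guides were 7 distinct sequences with 1 seed. Over the first 21 bases, passenger strands differed from each other at a median of 5 positions (0 to 10) and guides at a median of 3 (1 to 6), and the base was the same in all members at 10 positions of the passenger strands and 14 of the guides. The sequences of let-7a-1-3p and let-7c-2-3p are identical, which matches their identical counts: their reads cannot be assigned to a hairpin. let-7f-2-3p differs from both at 1 of these 21 bases, so a counting step that allows a mismatch could divide reads between them, and the mismatch setting is not given in the sources used here. Every one of the 9 passenger strands begins with C, whereas 21.8% of the 689 miRNAs of the table with a RefSeq sequence do.

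The hairpins lie in several places of GRCr8. let-7a-1-3p (chr17:16320196-16320217), let-7f-1-3p (chr17:16320564-16320584) and let-7d-3p (chr17:16322327-16322348) lie on the plus strand of one cluster inside the long noncoding gene LOC120097935. let-7c-2-3p (chr7:118683684-118683705) and let-7b-3p (chr7:118684098-118684119) are neighbours on the plus strand with no other listed gene over them. let-7f-2-3p (chrX:24460102-24460122, plus strand) lies within the span of Huwe1, which encodes a ubiquitin ligase, and shares its cluster with miR-98. let-7e-3p (chr1:67350288-67350309, plus strand) lies within the span of Spaca6 beside miR-99b and miR-125a, and let-7a-2-3p (chr8:50805264-50805285, plus strand) within the spans of Mir100hgl and Lnc215, in the cluster of miR-100 and miR-125b. let-7i-3p (chr7:60527879-60527900, minus strand) lies within the span of LOC134479799. let-7c-1 belongs to the cluster of miR-99a. The build behind the deposited counts is not given in the sources used here, so these positions locate the sequences only.

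Total counts were 7428890 to 13198776 in the 2VO libraries and 7175872 to 9464216 in the tilianin libraries. Tilianin replicate 2 stood apart from the others, since its Spearman correlation with each of the other 5 libraries was 0.936 to 0.957 over the 454 tested miRNAs, while those 5 correlated at 0.983 to 0.992 with one another. It also carried the highest summed level of Hox-cluster miRNAs (3 of 3 markers with counts), at 21658 CPM against 89.8 to 489 CPM elsewhere. Its summed choroid plexus markers (2 of 2 with counts) were at 1073 CPM against 119 to 346 CPM, its muscle markers (3 of 3) at 415 CPM against 77.3 to 163 CPM, and its erythroid markers (3 of 3) at 881 CPM against 155 to 406 CPM. Some markers also had groups that did not overlap, where 9.69% of the 454 tested miRNAs did so. By edgeR, the adjusted p-values of miR-486 and miR-211-5p, which are among them, were 0.591 and 0.598. The erythroid sum ran from 155 to 198 CPM in the 2VO group and from 338.1 to 881 CPM in the tilianin group, but nearly all of it was miR-486 (152 to 198 CPM and 337.6 to 876 CPM), while miR-144-3p overlapped between groups (0.232 to 2.29 CPM and 0.326 to 3.54 CPM) and miR-451-5p had 6 counts in all. The Hox sum ran from 89.8 to 149 CPM and from 321 to 21658 CPM. The choroid plexus marker miR-211-5p, at 1.31 to 1.78 CPM under vehicle and 3.30 to 8.47 CPM under tilianin, did not overlap between groups, whereas its list's sum did. miR-1-3p and miR-451-5p, which help define the muscle and erythroid lists, had no more than 4 counts in any library. The row of miR-1b, outside the list and looked up after its values were seen, had means of 244 CPM under vehicle and 843 CPM under tilianin, with groups that overlapped. How reads were divided between the rows of miR-1 was not tested. The neuronal markers miR-124-3p, miR-9a-5p and miR-128-3p, summed, were at 83358 CPM in tilianin replicate 2 and at 126366 to 159150 CPM in the other libraries. The defining markers of the labelled tissue, brain, were thus abundant in each library. All of them were lowest in tilianin replicate 2, most of all miR-128-3p, at 3885 CPM against 17574 to 28697 CPM in the other libraries. Of the oligodendrocyte markers (3 of 3 with counts), summed at 17.5 to 50.4 CPM over the 6 libraries, miR-219a-5p had 1 count in all libraries together. The row of miR-219b, looked up after its values were seen, had means of 526 CPM under vehicle and 754 CPM under tilianin, with groups that overlapped. The low sum is therefore no measure of the miR-219 family, and how its reads were divided between rows was not tested. The liver marker miR-122-5p ranged from 1.42 to 22.3 CPM among 2VO and from 0.616 to 2.08 CPM among tilianin libraries. The fold changes of the members and of the let-7 guides, and the let-7 ratio differences, are therefore also given without tilianin replicate 2, singly or as a range. The part of other tissue in these values was not tested.

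let-7 passenger strands spanned a wide range of counted levels in these libraries. Some common miRNAs were counted near 0, such as miR-21-5p, with means of 0.131 CPM under vehicle and 0.524 CPM under tilianin. miR-30e-5p had means of 1.31 and 1.07 CPM. The reason is not given in the sources used here, so levels, orders and ratios below describe the deposited counts. CPM is a count scaled to a library of 1000000 counts after TMM scaling. No correction for length was made, since the mature strands with sequence are all 21 or 22 bases long. Whether library preparation recovered each sequence equally was not tested, which limits the orders, seed shares and passenger to guide ratios below. The let-7a-1-3p and let-7c-2-3p signal was the most abundant, where 2VO replicates 1, 2 and 3 gave 269, 287 and 237 CPM and tilianin replicates 1, 2 and 3 gave 243, 309 and 216 CPM. let-7d-3p followed, for which the 2VO libraries gave 149, 178 and 132 CPM and the tilianin libraries gave 176, 219.8 and 135 CPM. The ranges of these leading signals overlapped between libraries, but in each of the 6 libraries the former exceeded the latter. Together with the rest, they placed passenger strands from rank 118 to rank 367 by mean level among the 454 tested miRNAs.

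The next levels were held by let-7f-2-3p and let-7b-3p. For let-7f-2-3p the 2VO libraries gave 67.3, 65.8 and 59.3 CPM and the tilianin libraries gave 52.5, 44.5 and 53.7 CPM. For let-7b-3p the 2VO libraries gave 53.6, 55.3 and 37.9 CPM and the tilianin libraries gave 49.3, 76.7 and 35.6 CPM. The order of these was not fixed, since let-7f-2-3p was the higher in 5 of 6 libraries and let-7b-3p in tilianin replicate 2. let-7e-3p, from the hairpin beside miR-99b and miR-125a, varied little, since the 2VO libraries gave 19.1, 19.5 and 18.5 CPM and the tilianin libraries gave 19.5, 18.6 and 17.3 CPM. let-7f-1-3p lay near it, as the 2VO libraries gave 16.3, 16.4 and 10.9 CPM and the tilianin libraries gave 12.3, 20.3 and 12.0 CPM, and exceeded it in tilianin replicate 2 alone.

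The lowest signals were let-7c-1-3p, let-7i-3p and let-7a-2-3p. For let-7c-1-3p the 2VO libraries gave 7.19, 7.64 and 7.12 CPM and the tilianin libraries gave 6.41, 5.54 and 5.49 CPM. For let-7i-3p, whose hairpin stands alone in the genome, the 2VO libraries gave 5.88, 5.71 and 5.05 CPM and the tilianin libraries gave 4.67, 7.85 and 6.59 CPM. It could not be ordered against let-7c-1-3p, which was the higher in 4 of 6 libraries. let-7a-2-3p had only 14, 21 and 6 counts in the 2VO libraries and 9, 19 and 6 counts in the tilianin libraries, which is 0.732 to 2.93 CPM. It was the lowest member in each of the 6 libraries. No member had 0 counts in a library, and all 10 passed the filter of at least 10 counts in total.

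**Figure D1:**
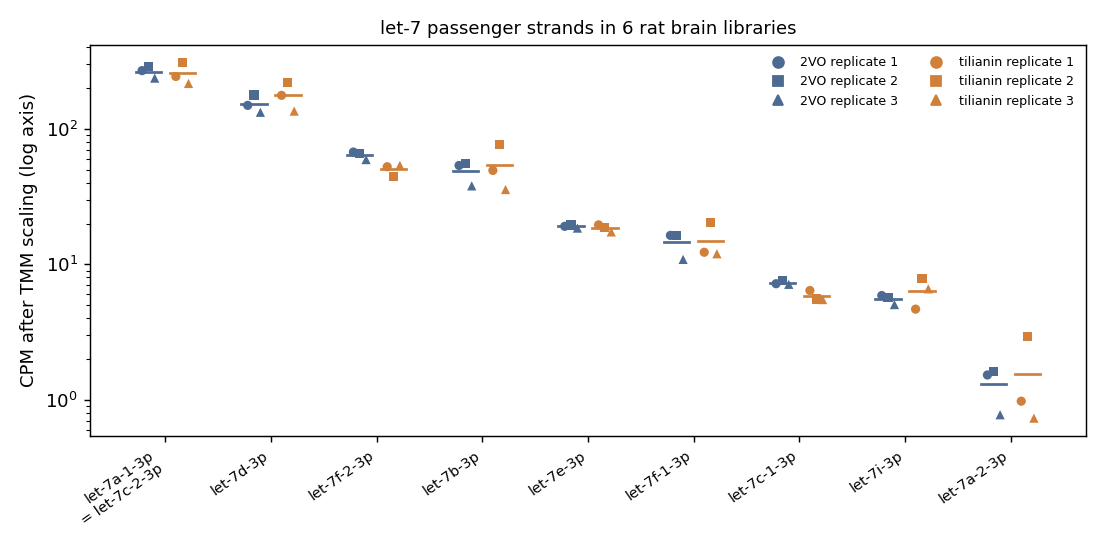
Level of each passenger signal in CPM after TMM scaling (log axis), with one point per library, blue for 2VO and orange for tilianin, and short lines at group means of 3 libraries. The signals step down from about 260.0 CPM for let-7a-1-3p and let-7c-2-3p to 1.43 CPM for let-7a-2-3p, and tilianin replicate 2 (orange squares) is the highest point for 6 of the 9 signals and the lowest for 1. Over all 454 tested miRNAs that library was the highest for 150 and the lowest for 151.

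The passenger counts listed for hairpins that share a guide sequence were unequal. let-7a-5p is made from the let-7a-1 and let-7a-2 hairpins, and the let-7a-1-3p count was 106 to 305 times that of let-7a-2-3p. let-7c-5p is made from let-7c-1 and let-7c-2, and the count listed for let-7c-2-3p was 33.2 to 55.7 times that of let-7c-1-3p. In both cases the larger count is the shared row of let-7a-1-3p and let-7c-2-3p, so it is an upper limit for either hairpin and enters both comparisons. let-7f-5p is made from let-7f-1 and let-7f-2, and let-7f-2-3p had 2.19 to 5.45 times the counts of let-7f-1-3p, higher in 6 of 6 libraries. Within the cluster of let-7a-1, let-7f-1 and let-7d inside one noncoding gene, the mean levels over 6 libraries were 260.0, 14.7 and 165 CPM.

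Grouped by seed, UAUACAA was the main passenger seed. It is carried by let-7a-1-3p, let-7c-2-3p, let-7b-3p and let-7f-1-3p, which together held 56.1% of the mean passenger CPM with the identical rows entered once. The seed UAUACGA of let-7d-3p held 28.4% and UAUACAG of let-7f-2-3p 9.84%, while UAUACGG of let-7e-3p held 3.23%. UAUACAA is also the seed of miR-98-3p and of miR-3596d, whose locus lies opposite that of let-7f-1. miR-3596d was looked up after its seed was found, and with 1 to 7 counts per library it was far below the 84 to 212 counts of let-7f-1-3p. Whether the counting used strand is not given in the sources used here.

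Each passenger strand was then set against its guide from the same library, a comparison in which library scaling cancels. Summed over the 9 signals, the 2VO libraries held 588, 636 and 508 CPM of passenger strand and the tilianin libraries 565, 705 and 483 CPM. The 7 guides summed to between 28361 and 36953 CPM. Passenger strands were thus 1.76 ± 0.120% of the let-7 counts of these arms in the 2VO group and 1.69 ± 0.160% in the tilianin group (SD, n = 3 each), with 3929 to 8244 passenger counts behind each value. The single libraries ran from 1.58% (Wilson 95% interval 1.54 to 1.62, for counting error only) in tilianin replicate 1 to 1.88% (1.84 to 1.92) in 2VO replicate 2, and the groups overlapped. Tilianin replicate 2 was at 1.87%, and the other tilianin libraries were at 1.58% and 1.62%.

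The balance differed widely between hairpins. Among the ratios as counted, let-7d had the largest share of passenger strand. It had 9.16, 10.9 and 9.72 passenger counts per 100 guide counts in the 2VO libraries and 8.54, 13.7 and 9.96 in the tilianin libraries. let-7a-1 had 5.80 to 7.04 and let-7c-2 3.96 to 5.05 over the 6 libraries. For these hairpins the passenger row is shared and the guide is pooled over a pair of hairpins. Their values therefore bound the balance within a single duplex on neither side. let-7b had 1.74 to 3.11 and let-7e 1.80 to 2.27. The remainder lay under 1, with 0.348 to 0.563 for let-7f-2, 0.0932 to 0.159 for let-7f-1, 0.0907 to 0.149 for let-7c-1, 0.0703 to 0.108 for let-7i and 0.0197 to 0.0647 for let-7a-2. For let-7f-1, let-7f-2, let-7c-1 and let-7a-2 the guide is likewise pooled over a pair of hairpins, so these values are lower limits for the balance of the single hairpin. let-7i-5p is among the abundant guides, at 5411 to 8635 CPM, yet its passenger strand was at 4.67 to 7.85 CPM, whereas let-7d-5p at 1355 to 2066 CPM came with 132 to 219.8 CPM of let-7d-3p. let-7d-5p is also the guide of this family that begins with A, where the other 6 begin with U, and whether the first base bears on the balance was not tested.

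**Figure D2:**
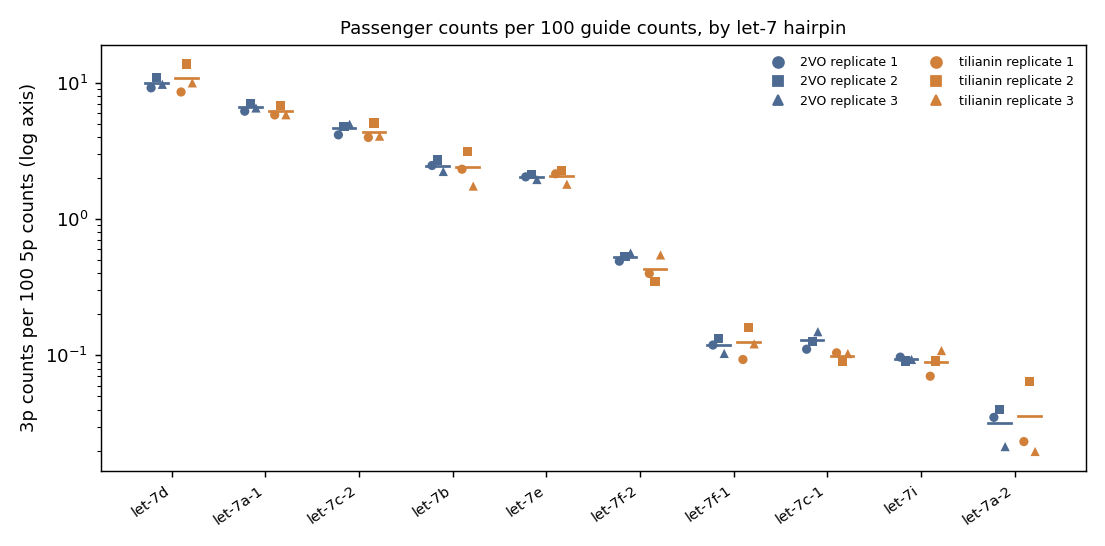
Counts of the 3p passenger strand per 100 counts of the 5p guide in the same library (log axis), by let-7 hairpin, with one point per library and short lines at group means of 3 libraries. Hairpins range from 8.54 to 13.7 for let-7d down to 0.0197 to 0.0647 for let-7a-2, whose guide, like those of the other let-7a, let-7c and let-7f hairpins, is pooled over a pair of hairpins, while the 2 groups lie over each other except for let-7c-1, where all tilianin points are below the 2VO points.

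Against the other hairpins of the table, the let-7 balance was not uniform. Of 175 hairpins whose arms each had at least 10 counts in total, the median hairpin had 4.09 counts of its lesser arm per 100 of its greater arm (quartiles 0.490 and 20.9). let-7d, at 10.2, stood at percentile 64.6 of these hairpins, let-7b, at 2.39, at percentile 45.7, and let-7i, at 0.0919, at percentile 10.3. Some hairpins share an arm in this count, so percentiles are a description.

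**Figure D3:**
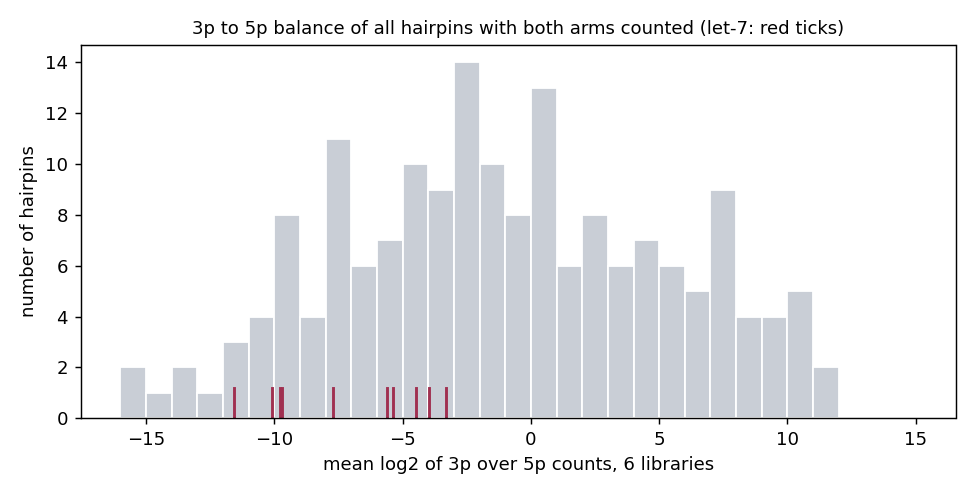
Mean log2 ratio of 3p to 5p counts over 6 libraries for 175 hairpins (bars: number of hairpins per unit of log2), with the 10 let-7 hairpins as red ticks. All let-7 ticks lie on the negative side, where the 5p arm is the greater, as for 100 of the 175 hairpins, and they run from -11.58 for let-7a-2, set against a guide pooled over a pair of hairpins, to -3.29 for let-7d.

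The comparison of the tilianin group with the 2VO group asks whether treatment of the ligated rats altered these strands. None of them passed the criterion of the study, an unadjusted p-value below 0.05 with an absolute log2 fold change above 1. With edgeR's quasi-likelihood test, 0 of the 9 passenger signals passed it, where 5.73% of the 454 tested miRNAs did, and 0 of the 9 had an unadjusted p below 0.05 (7.27% of all tested miRNAs). DESeq2's Wald test and limma-voom also gave 0 of 9 at either threshold. The log2 fold changes lay between -0.35 and 0.21, with 5 signals above 0 and 4 below it and a median of 0.027, against a median of -0.034 over all tested miRNAs.

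let-7f-2-3p had the smallest p of the members. Its means were 64.1 ± 4.29 CPM under vehicle and 50.2 ± 4.99 CPM under tilianin (SD, n = 3 each), with every tilianin library below every 2VO library, but the log2 fold change of -0.35 (95% interval -0.76 to 0.054) had an unadjusted p of 0.0796 and an adjusted p of 0.708 by edgeR. let-7c-1-3p had the same arrangement, with means of 7.32 ± 0.284 CPM under vehicle and 5.81 ± 0.514 CPM under tilianin (SD, n = 3 each) and a log2 fold change of -0.33 (95% interval -0.85 to 0.19, unadjusted p 0.179, adjusted p 0.746, edgeR). Thus 2 of 9 signals had groups that did not overlap, against 9.69% of all tested miRNAs, and a two-sided exact permutation test returned p = 0.1 for each, the smallest that 3 libraries against 3 can give. The hairpins of these signals lie in different clusters, let-7f-2 with miR-98 and let-7c-1 with miR-99a.

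The abundant passenger strands overlapped between groups. let-7a-1-3p with let-7c-2-3p had means of 264 ± 25.4 CPM under vehicle and 256 ± 47.7 CPM under tilianin (SD, n = 3 each), for a fold change on the log2 scale of -0.044 (95% interval -0.54 to 0.45). let-7d-3p had means of 153 ± 22.9 CPM and 177 ± 42.4 CPM (SD, n = 3 each), for a fold change on the log2 scale of 0.21 (95% interval -0.36 to 0.78). let-7b-3p, let-7f-1-3p and let-7i-3p had log2 fold changes of 0.14, 0.027 and 0.19, and let-7e-3p of -0.041 with a 95% interval of -0.47 to 0.39. For 8 of the 9 signals the interval excluded a change of 2-fold in either direction, and for let-7a-2-3p, with 6 to 21 counts per library, it ran from -1.26 to 1.64, so that such a change was not excluded. Without tilianin replicate 2, the log2 fold change of let-7a-2-3p was -0.62, of let-7b-3p -0.19 and of let-7f-1-3p -0.26, each the opposite sign of the value with it. The other values without it were -0.19 for let-7a-1-3p, 0.039 for let-7d-3p, 0.025 for let-7i-3p, -0.030 for let-7e-3p, -0.26 for let-7f-2-3p and -0.28 for let-7c-1-3p, and no signal passed the criterion.

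**Figure D4:**
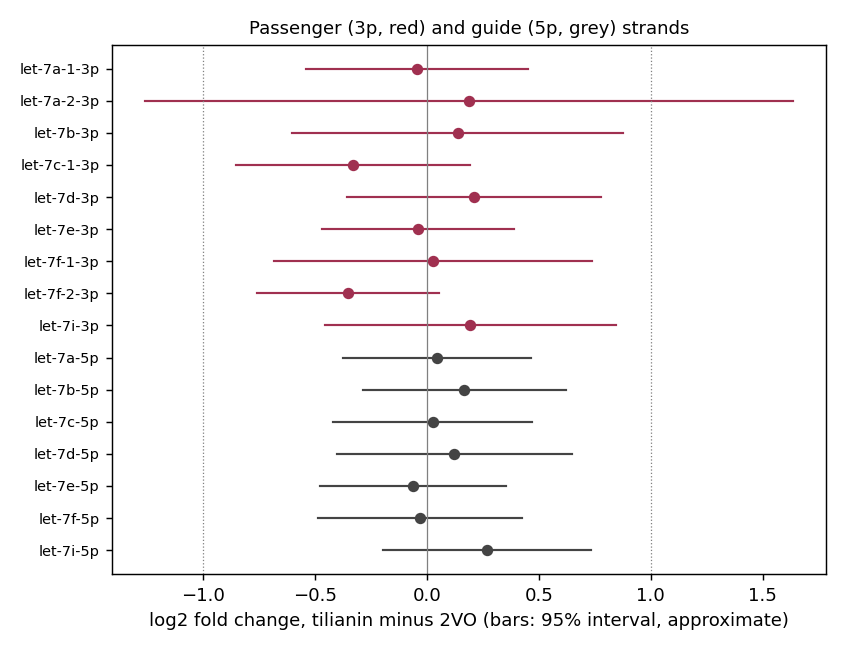
Log2 fold change of tilianin against 2VO for the 9 passenger signals (red) and the 7 guides (grey), with approximate 95% intervals and dotted lines at a 2-fold change. Every interval includes 0, and that of let-7a-2-3p, from -1.26 to 1.64, is the widest.

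The passenger to guide ratio was compared in the same way with limma over all 175 hairpins. Of the 10 let-7 hairpins, 0 passed an unadjusted p below 0.05 with an absolute log2 difference above 1 (3.43% of all hairpins did), and 0 had an unadjusted p below 0.05 (4% of all hairpins). let-7c-1 had the largest difference in log2 ratio, -0.36 (95% interval -0.77 to 0.048, unadjusted p 0.0757, adjusted p 0.983, limma), from 0.129 ± 0.0191 to 0.0993 ± 0.00751 passenger counts per 100 guide counts (SD, n = 3 each). It was the 1 let-7 hairpin of 10 whose groups did not overlap, against 8.57% of all hairpins. let-7f-2 had a difference of -0.32 (95% interval -0.77 to 0.13), and its groups overlapped through tilianin replicate 3. Without that library the difference was -0.50 with an unadjusted p of 0.0139 by limma, and the fits without each library gave 0.0139 to 0.322. let-7d, let-7a-1, let-7b and let-7e had differences of 0.088, -0.10, -0.082 and 0.023. Without tilianin replicate 2, the differences of let-7d (-0.10), let-7e (-0.047), let-7f-1 (-0.15) and let-7a-2 (-0.50) were below 0, where with it they were above 0. The other 6 hairpins were below 0 with and without it. Without it they were let-7c-1 at -0.30, let-7b at -0.29, let-7c-2 at -0.20, let-7a-1 at -0.18, let-7f-2 at -0.18 and let-7i at -0.10. No let-7 hairpin had an unadjusted p below 0.05 by limma without tilianin replicate 2. The spread of the log2 ratio between libraries of a group had a median of 0.245 for the 9 distinct passenger signals and 0.386 over all hairpins.

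The guides of these hairpins were compared beside them as the list fixed for the seed family. Of let-7a-5p, let-7b-5p, let-7c-5p, let-7d-5p, let-7e-5p, let-7f-5p, let-7i-5p and miR-98-5p, 0 passed the criterion in either direction, and the log2 fold changes of the 7 let-7 guides lay between -0.061 for let-7e-5p and 0.27 for let-7i-5p. Without tilianin replicate 2 they lay between -0.070 for let-7f-5p and 0.17 for let-7d-5p, with let-7a-5p (-0.0084) and let-7e-5p (0.016) on the other side of 0. let-7f-5p, the most abundant of the 7, had means of 12197 ± 1607 CPM under vehicle and 11939 ± 1811 CPM under tilianin (SD, n = 3 each). miR-98-5p, which shares the let-7 seed and the cluster of let-7f-2, had 602 ± 74.4 CPM and 519 ± 91.1 CPM (SD, n = 3 each). Its fold change on the log2 scale was -0.21, or -0.15 without tilianin replicate 2. Its own passenger strand miR-98-3p had 4.27 to 8.49 CPM over the 6 libraries. The log2 fold change of miR-98-3p was -0.15 (standard error 0.31), or -0.22 without tilianin replicate 2.

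let-7g-3p, the row outside the list, held counts identical to those of a miRNA that the authors predicted, so the signal may belong to either. The 2VO libraries gave 2.07, 1.93 and 1.81 CPM for it and the tilianin libraries gave 1.85, 1.85 and 4.15 CPM. With 12 to 34 counts per library, let-7g-3p was at 0.00658 to 0.0211 counts per 100 counts of let-7g-5p. It was the scarcest let-7 passenger strand relative to its guide, except in tilianin replicate 3, where let-7a-2 was lower (0.0197 against 0.0211). The log2 fold change of let-7g-3p was 0.43 (95% interval -0.55 to 1.42), or 0.62 without tilianin replicate 2.

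For the leading passenger strands, the miRNAs of other families nearest in pattern over the 6 libraries were looked up. Any signal has a nearest miRNA, so the distances are a description only. Likeness was measured as the root-mean-square difference of log2(CPM + 1) after centring each miRNA, among 422 candidates outside the family. For let-7a-1-3p the nearest were miR-381-3p (0.0911) and miR-16-5p (0.106), and for let-7d-3p they were miR-16-5p (0.080) and miR-423-5p (0.0914). For let-7f-2-3p they were miR-3558-3p (0.060) and miR-582-3p (0.070), of which miR-3558-3p was at 0.406 CPM, where a pseudocount of 1 compresses differences. The standard deviations of the passenger strands themselves over these libraries were 0.19, 0.28 and 0.22 on the same scale.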

How the data were processed

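Small RNA of 6 rat brain libraries was analysed. Per the labels, libraries were made with a TruSeq Small RNA kit, and the submitters' processing notes name FastQC 0.11.2, Trimmomatic 0.36, cutadapt 1.14 and DESeq2 1.12.4. The authors deposited raw counts per mature miRNA. Aligner, reference and build are not given in the sources used here. Groups were taken from the labels.

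Counts were TMM-scaled and compared by the quasi-likelihood F test of edgeR (version 4.0.16, with limma 3.58.1 under R 4.3.3) on the 454 miRNAs with at least 10 counts in total. Standard errors and intervals are approximate, being derived from fold change and F. Ratios of 3p to 5p counts, with 0.5 added to each, were tested with limma (trend) over 175 hairpins. P-values were adjusted by Benjamini-Hochberg over all features. Permutation tests were exact and two-sided, on log2(CPM + 1) or on the log2 ratio. DESeq2 1.42.0, limma-voom, other scalings, filters and pseudocounts, the replicate block and leaving out each library were alternatives. Code was tested on simulated data.

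The named miRNAs are the 10 members, their guides, miR-98, the cluster partners and, for the 3 most abundant signals, the 2 miRNAs nearest in pattern. let-7g, miR-3596d, miR-219b, miR-1b, miR-21-5p and miR-30e-5p were added after their values or sequences were seen. The members and lists were chosen with earlier results of these data known. For miR-9-5p the table's miR-9a-5p was used. Mature sequences are from RefSeq. No molecular identifiers are mentioned.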

Additional observations from a re-analysis of the deposited data

How the results depend on the processing

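The number of passenger signals past the criterion was 0 of 9 with DESeq2's size factors, library totals, DESeq2's Wald test, limma-voom, no filter, filterByExpr, the replicate block, identical rows kept once (chosen after seeing the data) and in the 6 fits without a library, and the number of hairpins past it was 0 of 10 under each ratio alternative. Directions near 0 were not stable. let-7f-1-3p turned to -0.054 with library totals and -0.014 with limma-voom, let-7a-2-3p to -0.083 with limma-voom, and the let-7a-2 ratio to -0.00099 with 0.1 added. Across the fits without a library, fold changes ran from -0.19 to 0.059 for let-7a-1-3p, -0.62 to 0.51 for let-7a-2-3p, -0.19 to 0.36 for let-7b-3p, -0.067 to 0.016 for let-7e-3p and -0.26 to 0.17 for let-7f-1-3p. Ratio differences ran from -0.50 to 0.31 for let-7a-2, -0.29 to 0.13 for let-7b, -0.10 to 0.24 for let-7d, -0.047 to 0.12 for let-7e, -0.15 to 0.24 for let-7f-1 and -0.23 to 0.084 for let-7i. Leaving out tilianin replicate 2 turned the sign of 3 of the 9 passenger fold changes and 4 of the 10 ratio differences. let-7f-2-3p (-0.41 to -0.26), let-7c-1-3p (-0.39 to -0.26), let-7d-3p (0.039 to 0.37) and let-7i-3p (0.025 to 0.40) kept their sign in each of these fits, as did the ratios of let-7a-1, let-7c-1, let-7c-2 and let-7f-2. What caused these shifts was not tested. The summed passenger level differed by 0.0050 on the log2 scale, and by -0.12 to 0.13 without a library. Between libraries of the same replicate number, the correlations of deviations were -0.121, 0.00917 and 0.297 for numbers 1, 2 and 3. They were not set against those of unlike numbers, so they cannot decide whether the numbers pair the libraries. The replicate block gave 0 passenger signals and 0 hairpins past the criterion. let-7a-2-3p had the fewest counts, 6 to 21 per library, so counting error bears on it most.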

Other observations

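Within the passenger pool, let-7d-3p took 26.4 ± 1.35% under vehicle and 30.1 ± 1.86% under tilianin (SD, n = 3 each), and its lowest tilianin library was barely above its highest 2VO library. let-7a-1-3p with let-7c-2-3p took 45.7 ± 0.736% and 43.9 ± 0.882% (SD, n = 3 each). The groups did not overlap in either share, which are parts of one sum and were looked at after the values were seen, without a test. The passenger strands of the partner hairpins miR-125b-1, miR-125b-2, miR-99a, miR-99b, miR-100 and miR-125a had log2 fold changes of 0.042, -0.098, -0.010, 0.13, 0.54 and 0.42, none of them past an unadjusted p of 0.05 in edgeR's quasi-likelihood test. In the passenger to guide ratio, miR-125a, the neighbour of let-7e, was higher in every tilianin library than in every 2VO library. However, tilianin replicate 1 was barely above 2VO replicate 2, and miR-125a-3p had only 26 to 63 counts per library. The log2 difference was 0.56 (unadjusted p 0.0245, adjusted p 0.983, limma) and 0.53 (unadjusted p 0.0438) without tilianin replicate 2, short of the 2-fold of the criterion. Of all hairpins, 8.57% had groups that did not overlap and 4% had an unadjusted p below 0.05. The other 5 partner ratios overlapped between groups and had unadjusted p-values of 0.367 to 0.917 by limma.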
